A study of Mus musculus with 6 samples.

Results

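The 7 genes described here, Sox2, Lrig1, Lgr5, Isl1, Trp63, Sp6 and Ptgs2, are markers or regulators of the epithelial stem cells of the mouse incisor. They are matched by gene symbol, and all 7 have a row among the 25703 genes of the count table and were among the 19613 genes tested. The 6 libraries hold RNA from the proximal incisor of C57BL/6 mice aged 6 weeks. The control group is 3 libraries from Arid1a fl/fl mice, which carry loxP-flanked Arid1a and no Cre according to their genotype label, and the Arid1a cKO group is 3 libraries from Gli1-CreER;Arid1a fl/fl mice. The protocol given with every sample has tamoxifen injected into the peritoneum at 1.5 mg per 10 g body weight a day, for 3 days, at 1 month of age. In the cKO mice the Gli1 promoter drives the tamoxifen-inducible Cre, so deletion depends on which cells use Gli1 at that time. Arid1a encodes the DNA-binding subunit of a SWI/SNF (BAF) chromatin remodelling complex.

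The mouse incisor grows throughout life. At its proximal end the epithelium folds into the labial cervical loop, where stem cells of the outer enamel epithelium and stellate reticulum give rise to dividing progenitors and then to enamel-forming ameloblasts. The neighbouring mesenchyme, in which Gli1 marks stem cells, sends FGF, BMP and WNT signals to this epithelium. Gli1 is also active in some dental epithelial cells. The question the comparison addresses is whether the transcripts of epithelial stem cell factors differ when Arid1a is deleted from Gli1-expressing cells.

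The promoters of the members whose groups separated, Sox2 and Lrig1, are shown with that of Isl1, whose mean hardly differed. The choice thus followed the expression values, and a contrast between these promoters was not tested. RefSeq (GRCm38.p6) promoter entries were found for 4 of the 7 genes, these and Ptgs2, whose letters are not shown. Each run reads 5′ to 3′ on the strand of the gene and stops before both the RefSeq and the GENCODE start. Capitals mark a GC box (GGGCGG on either strand) in Sox2 and Lrig1, and a bicoid-type homeobox motif (TAATCC) in Isl1.
Sox2, chr3:34649745-34649994, plus strand: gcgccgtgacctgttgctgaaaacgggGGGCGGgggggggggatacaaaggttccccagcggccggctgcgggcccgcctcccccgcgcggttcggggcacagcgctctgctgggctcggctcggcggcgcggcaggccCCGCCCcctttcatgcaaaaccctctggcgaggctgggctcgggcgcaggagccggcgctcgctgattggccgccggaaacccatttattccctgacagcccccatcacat
Lrig1, chr6:94700159-94700395, minus strand: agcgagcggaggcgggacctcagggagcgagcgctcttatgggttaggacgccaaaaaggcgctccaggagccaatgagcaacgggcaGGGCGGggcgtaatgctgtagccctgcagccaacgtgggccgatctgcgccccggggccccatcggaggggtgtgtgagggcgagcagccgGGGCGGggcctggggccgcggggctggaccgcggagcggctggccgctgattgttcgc
Isl1, chr13:116309690-116309938, minus strand: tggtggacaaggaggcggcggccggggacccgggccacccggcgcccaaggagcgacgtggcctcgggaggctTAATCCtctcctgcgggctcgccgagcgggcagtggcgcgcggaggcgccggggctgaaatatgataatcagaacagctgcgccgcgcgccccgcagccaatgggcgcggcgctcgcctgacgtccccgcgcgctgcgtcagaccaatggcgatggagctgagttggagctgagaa
GC and CpG were taken over the 250 bases before the RefSeq start, which for Lrig1 and Isl1 run past the letters shown. GC was 72% for Sox2, 71.6% for Lrig1, 71.2% for Isl1 and 61.6% for Ptgs2. The median was 52.4% over 32851 promoter entries of mouse genes. The ratio of observed to expected CpG was 0.833 for Sox2, 0.852 for Lrig1, 1.05 for Isl1 and 0.564 for Ptgs2, against a median of 0.373. A GC box, the letters that SP-family factors bind, was found 2 times in Sox2, 2 times in Lrig1 and 1 time in Ptgs2, and 32.7% of all entries hold at least 1. The TAATCC motif, read by PITX factors among others, is in 6.25% of all entries. The other motifs were searched on both strands and are not in the 4 windows. The TCF/LEF core CTTTGA is in 13.8% of all entries, and the SOX core, spelled CATTGT, is in 10.7% of them. The E-box, spelled CACGTG, is in 6.02%, the AP-1 motif TGACTCA in 4.46%, and the TATA box, spelled TATAAA, in 12.4%. A match is a description of the letters and not a measured binding site.

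The libraries held 27300932 to 37908478 estimated counts. Levels are given as CPM, the count set against the library size after TMM scaling. Replicate numbers only name the libraries. Arid1a was lower in every cKO library, with 222, 249 and 223 CPM in the controls and 136, 139 and 145 CPM in the cKO libraries (log2 fold change -0.72, SE 0.0677, edgeR adjusted p = 0.00802). The gene was counted over all its exons, so transcripts that lack the deleted part can still count. Control replicate 3 and cKO replicate 1 have high Xist and the other 4 libraries express Y-linked genes, so each group mixes both patterns. The labels do not tie libraries to animals. The Xist and Y-linked patterns show RNA of both sexes within each group, and p-values reflect the scatter among these libraries, of which a part may be technical.

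None of the 7 genes passed an adjusted p of 0.05 in edgeR's quasi-likelihood test (two-sided, Benjamini-Hochberg adjusted over all genes tested), where 3.96% of all genes passed, 1.5% higher and 2.46% lower in the cKO. At an unadjusted p under 0.05 there were 2 of 7 genes (28.6%), Sox2 and Lrig1, against 22% of all genes. DESeq2 called the same 2, both higher in the cKO, against 10.5% of the genes it tested. The control and cKO libraries did not overlap for these 2 genes, and for no other member. Of all genes, 29.1% had groups that did not overlap, 13.8% with the cKO higher and 15.3% with it lower, so the members' share of 28.6% is near that of all genes in either direction. The median log2 fold change of the 7 was 0.15, with 5 of 7 above 0, and that of all genes tested was 0.0043.

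**Figure D1:**
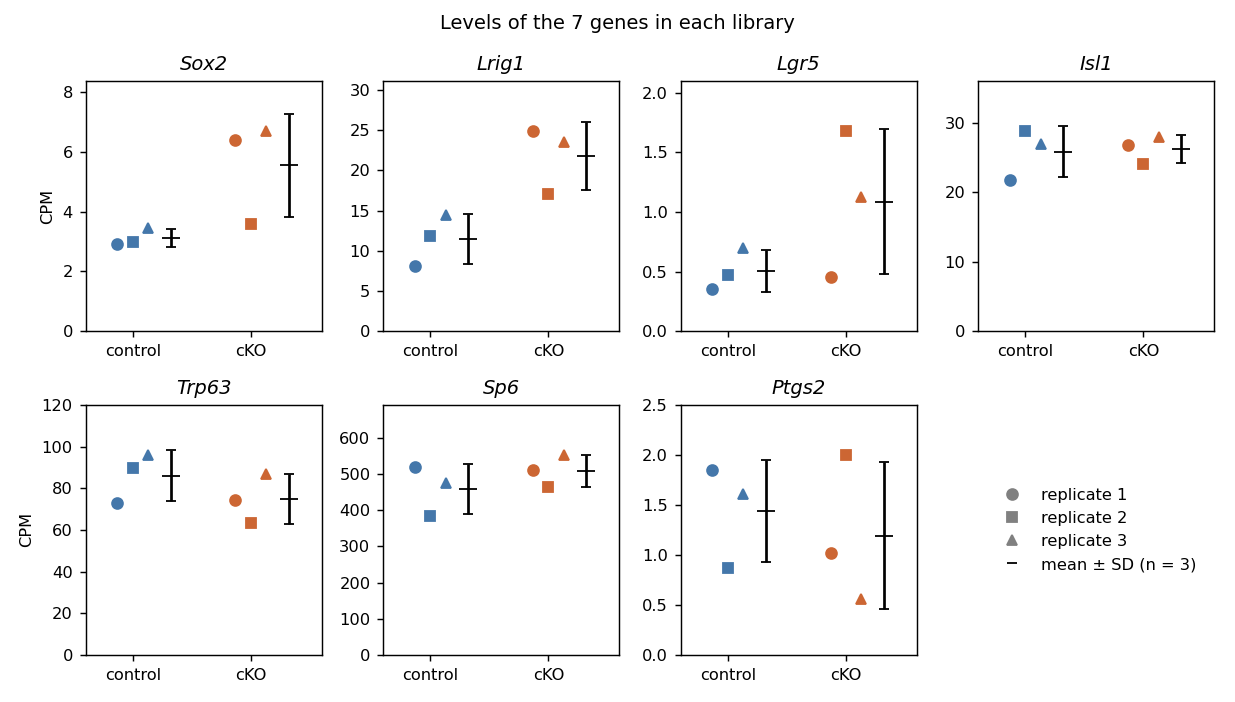
CPM of each gene in the 3 control and 3 cKO libraries, with a separate vertical axis from 0 for each gene; marker shape gives the replicate, and bars give the mean ± SD (n = 3). The cKO points of Sox2 and Lrig1 all lie above the control points, and the groups of the other genes overlap.

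Per kilobase of exon, Sp6 was the most abundant member. Its control mean was 120 CPM per kb. Trp63 followed at 10.3, Isl1 at 6.53, Lrig1 at 2.05, Sox2 at 1.52, Ptgs2 at 0.315 and Lgr5 at 0.0492 CPM per kb. Within the controls only Lrig1 (1.46 to 2.58) and Sox2 (1.43 to 1.69) overlapped as neighbours in that order. In the cKO libraries Lrig1 (3.05 to 4.45) and Sox2 (1.74 to 3.25) overlapped again, as did Ptgs2 (0.122 to 0.437) and Lgr5 (0.0447 to 0.164).

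Sox2 (chr3:34650405-34652461, plus strand, mm10) encodes an SRY-box transcription factor that marks incisor stem cells able to supply the epithelial lineages. It measured 2.93, 2.97 and 3.47 CPM in the controls, given in the order of replicates 1 to 3 here and for each gene that follows, and 6.40, 3.57 and 6.70 CPM in the cKO. The controls lay close together, cKO replicate 2 lay just above them, and the other two cKO libraries were far higher. The means were 3.12 ± 0.299 and 5.56 ± 1.72 CPM (SD, n = 3 each), a log2 fold change of 0.83 with a 95% interval of 0.25 to 1.41 and an edgeR adjusted p of 0.107. The exact two-sided permutation test gave p = 0.1, the smallest that 3 against 3 libraries allow. Without cKO replicate 2 the log2 fold change was 1.07 and the edgeR adjusted p 0.0345. Without each other library the log2 fold change was 0.69 to 0.92, with an edgeR adjusted p of 0.184 to 0.247. DESeq2 gave an adjusted p of 0.0360 on all libraries. Sox2 lies inside the long non-coding gene Sox2ot on the same strand, so their reads cannot be fully separated. Sox2ot measured 1.40, 1.78 and 1.35 CPM in the controls and 2.06, 1.57 and 2.18 CPM in the cKO (log2 fold change 0.36, edgeR adjusted p = 0.393), with groups that overlapped.

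Lrig1 (chr6:94604529-94700158, minus strand) encodes a transmembrane protein that dampens ErbB receptor signalling and marks quiescent stem cells in several epithelia. It measured 8.13, 11.8 and 14.4 CPM in the controls and 24.9, 17.0 and 23.5 CPM in the cKO. Every cKO library was above every control, and again cKO replicate 2 was the lowest of its group. The means were 11.4 ± 3.15 and 21.8 ± 4.19 CPM (SD, n = 3 each), a log2 fold change of 0.93 with a 95% interval of 0.38 to 1.48 and an edgeR adjusted p of 0.0767. The exact two-sided permutation p was 0.1. DESeq2 gave an adjusted p of 0.00114, and a term for sex-linked expression in the edgeR fit gave 0.0360 at a log2 fold change of 0.94. Without each library in turn the edgeR adjusted p was 0.0673 to 0.188. In the 4 libraries that express Y-linked genes it was 0.134. The end of Lrig1 overlaps Slc25a26 on the opposite strand by 144 bases, and no source used here says whether the counting used strand. Slc25a26 measured 4.81, 5.26 and 6.54 CPM in the controls and 6.96, 5.79 and 6.37 CPM in the cKO (adjusted p = 0.487 in edgeR).

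Lgr5 (chr10:115450311-115587780, minus strand) encodes a receptor for R-spondins that strengthens WNT signalling and marks stem cells in intestine and hair follicle. Its estimated counts were 11, 13 and 19 in the controls and 18, 62 and 34 in the cKO. The lowest cKO library lies within the control range, and cKO replicate 2, the lowest of the cKO group for Sox2 and Lrig1, is the highest here. A930009A15Rik overlaps Lgr5 on the opposite strand. In CPM the values were 0.351, 0.471 and 0.694 against 0.459, 1.68 and 1.12, a log2 fold change of 1.10 with a 95% interval of -0.07 to 2.27 (edgeR adjusted p = 0.252). Counting error alone is wide at this depth: the exact Poisson 95% interval is 5.49 to 19.7 for the count of 11 and 47.5 to 79.5 for the count of 62. For the cKO count of 18 it is 10.7 to 28.4, apart from that of 62, so the cKO libraries also differed by more than counting error. A difference in Lgr5 was not detectable at this depth and spread.

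Isl1 (chr13:116298281-116309689, minus strand) encodes a LIM-homeodomain transcription factor of the dental epithelium. It measured 21.7, 28.8 and 26.99 CPM in the controls and 26.8, 24.0 and 27.9 CPM in the cKO. The groups overlapped almost completely, at 25.8 ± 3.66 and 26.2 ± 1.99 CPM (SD, n = 3 each). The log2 fold change was 0.02 with a 95% interval of -0.24 to 0.29 (edgeR adjusted p = 0.934).

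Trp63 (chr16:25683763-25892102, plus strand) encodes p63, the transcription factor that maintains the basal layer of stratified epithelia. It measured 72.8, 89.6 and 96.2 CPM in the controls and 74.5, 63.3 and 87.0 CPM in the cKO. The groups overlapped, although the lowest value was in the cKO and the highest in the controls. The log2 fold change was -0.20 with a 95% interval of -0.54 to 0.13 (edgeR adjusted p = 0.448). The gene has alternative promoters and ends, and a count per gene does not separate the isoforms.

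Sp6 (chr11:97013394-97024734, plus strand) encodes epiprofin, a zinc-finger factor needed for ameloblast maturation and normal tooth number. It measured 520, 384 and 475 CPM in the controls and 510, 464 and 553 CPM in the cKO. The groups overlapped, and control replicate 2 was the lowest library. The log2 fold change was 0.15 with a 95% interval of -0.14 to 0.44 (edgeR adjusted p = 0.527). Gm11532 overlaps it on the opposite strand by 4227 bases and had means of 28.4 and 30.2 CPM (adjusted p = 0.677 in edgeR).

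Ptgs2 (chr1:150100031-150108227, plus strand) encodes cyclooxygenase-2, the inducible enzyme that starts prostaglandin synthesis. It measured 1.85, 0.870 and 1.61 CPM in the controls and 1.02, 2.003 and 0.561 CPM in the cKO. The cKO group held both the highest and the lowest library. The log2 fold change was -0.26 with a 95% interval of -1.39 to 0.86 (edgeR adjusted p = 0.796), an interval wide enough to hold a change of over 2-fold in the downward direction.

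Most markers of dental epithelium were higher on average in the cKO, as Sox2 and Lrig1 were, but their mean level overlapped between the groups. Of all genes, edgeR called 1.5% higher, and DESeq2 called 10.5% of those it tested in either direction. Of 20 dental epithelium markers, 19 had a log2 fold change above 0, with a median of 0.48, and 2 rose past the threshold in edgeR and 5 in DESeq2. The groups were apart with the cKO higher for 6 markers and lower for 0, against 13.8% and 15.3% of all genes. An unadjusted p under 0.05 in edgeR was found for 9 markers, against 22% of all genes. The edgeR calls were Epcam, an epithelial adhesion molecule, from 34.0 to 47.2 CPM (1.39-fold, edgeR adjusted p = 0.0199), and Cldn4, a tight-junction claudin, from 0.607 to 1.75 CPM (2.88-fold, adjusted p = 0.0375). Epcam lost its call without any 1 control or cKO replicate 3 (adjusted p up to 0.0770 in edgeR), and Cldn4 kept it without control replicate 3 alone (up to 0.123). The summed level of the 20 markers was 1239 to 1809 CPM in the controls and 1493 to 2345 CPM in the cKO. Their mean log2 CPM was 4.23, 4.42 and 4.75 in the controls and 5.25, 4.70 and 5.003 in the cKO, a difference of 0.52 (exact two-sided permutation p = 0.2). The groups overlapped, with control replicate 3 above cKO replicate 2. Control replicate 1 was lowest and cKO replicate 1 highest, as for Lrig1, while Sox2 was highest in cKO replicate 3. In bulk RNA, fewer or more cells of a type and less or more RNA per cell cannot be told apart.

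With the marker score as a covariate in edgeR, the log2 fold change was 0.25 for Sox2 (SE 0.320, adjusted p = 0.884) and 0.31 for Lrig1 (SE 0.168, adjusted p = 0.630). Lgr5 stood at 1.59 (SE 0.688, edgeR adjusted p = 0.521) and Trp63 at -0.50 (SE 0.166, edgeR adjusted p = 0.367). No gene of the whole table passed in that fit. Arid1a itself did not pass, although its log2 fold change was -0.70 (SE 0.109, edgeR adjusted p = 0.0833). The score is itself measured on these libraries and differs between the groups, and the part of epithelial RNA content in the Sox2 and Lrig1 values was not tested further.

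Set against the mean log2 level of the 20 markers, the members differed in direction. Lrig1 was higher relative to the markers in every cKO library, at -1.20, -0.85 and -0.89 in the controls and -0.61, -0.60 and -0.45 in the cKO. Lrig1 was the only member with this pattern of cKO libraries all above the controls, and 0.989% of all genes tested had it. The mean of the markers was itself 0.52 higher in the cKO, which lowers the relative level of every gene there. The shares of genes apart in either direction are therefore set in part by the markers. Trp63 was lower relative to the markers in every cKO library, at 1.96, 2.06 and 1.84 against 0.97, 1.29 and 1.44. Isl1 was lower as well, at 0.22, 0.43 and 0.01 against -0.51, -0.11 and -0.20. Of all genes, 34.4% were apart in that downward direction, and of the members 2 of 7 (28.6%). The members' share is thus not above that of all genes. The marker list includes Krt5, Krt14, Perp and Dsp, which are also known p63 targets. The exact two-sided permutation p was 0.1 for each of these 3 genes and 0.233 after Benjamini-Hochberg adjustment over the 7 members. Sox2 differed by 0.25, Lgr5 by 0.38, Sp6 by -0.36 and Ptgs2 by -0.88, with groups that overlapped.

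**Figure D2:**
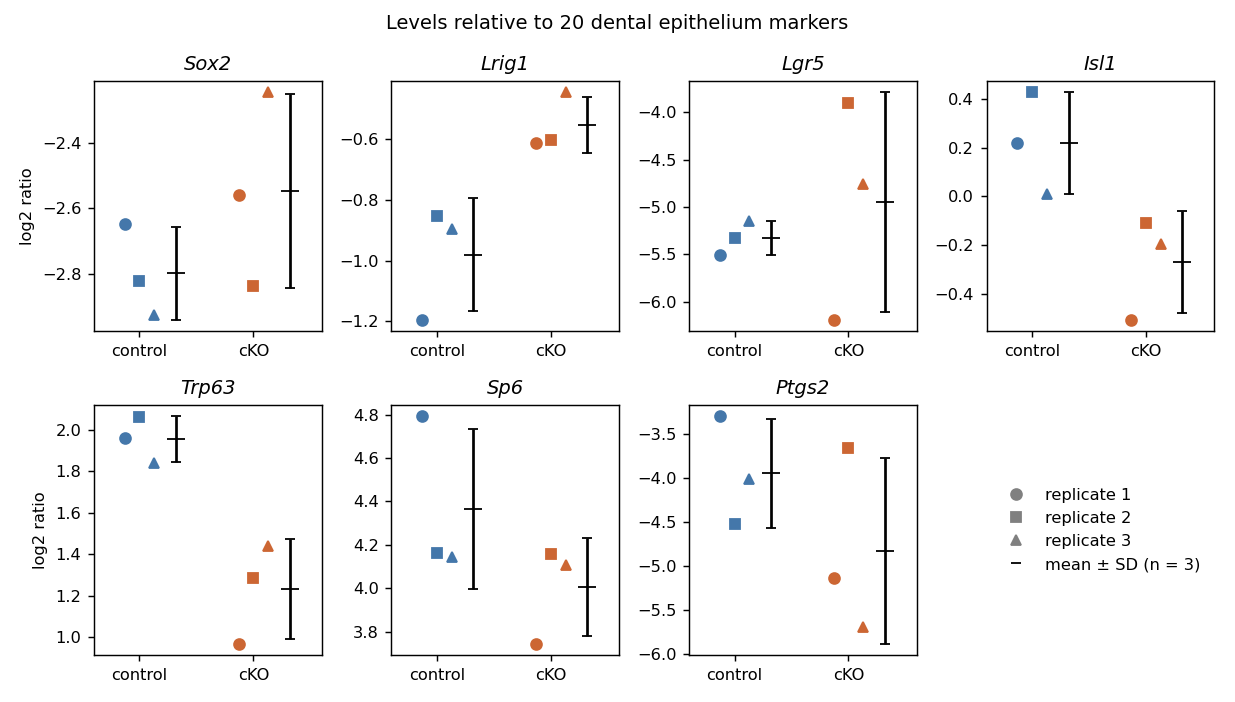
Log2 level of each gene minus the mean log2 level of 20 dental epithelium markers in the same library, for 3 control and 3 cKO libraries; bars give the mean ± SD (n = 3) and marker shape the replicate. Lrig1 lies higher in the cKO, Isl1 and Trp63 lie lower, and the groups of the other 4 genes overlap. Of all genes tested, 0.989% lay apart in the higher and 34.4% in the lower direction.

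Of 40 other genes known from the labial cervical loop, 3 rose and 4 fell, and 33 did not pass. Of all genes, 1.5% rose and 2.46% fell in the same edgeR test. The rises and falls were of modest size, and the median log2 fold change of the 40 was 0.03. Sfrp5, a secreted WNT antagonist used as a marker of the incisor stem cell zone, rose from 37.7 ± 3.00 to 56.8 ± 3.76 CPM (SD, n = 3 each; 1.51-fold, edgeR adjusted p = 0.0142). Etv5, a transcription factor induced by FGF signalling, rose 1.42-fold (adjusted p = 0.0274), and Foxi3, a forkhead factor of dental epithelium, rose 1.61-fold (0.0475). Sox9 fell 1.47-fold from 352 ± 11.2 to 240 ± 14.8 CPM (edgeR adjusted p = 0.0138), and Msx2, a homeobox factor, fell 1.40-fold (adjusted p = 0.0194). Notch2, a NOTCH receptor, and Igfbp5, a secreted binding protein of insulin-like growth factors, also fell 1.40-fold (0.0352 and 0.0407). Foxi3, Notch2 and Igfbp5 fall outside the rule for names and were picked with their values in view. Sfrp5 lost its call without control replicate 3 (adjusted p = 0.0510) and Sox9 without cKO replicate 3 (0.0525). Msx2 lost it without control replicate 3 or cKO replicates 2 or 3 (up to 0.0667), Etv5 without any 1 control or cKO replicate 3 (up to 0.0806), Notch2 without any library but cKO replicate 1 (up to 0.0978), and Foxi3 and Igfbp5 without each of the 6 (up to 0.126 and 0.132). Leaving out 1 library left 0 to 4 rises and 0 to 3 falls, with 0 rises without control replicate 3 and 0 falls without cKO replicate 3. Sox9, Msx2, Notch2 and Igfbp5 are also used by dental mesenchyme, so their direction in the epithelium is not measured here.

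**Figure D3:**
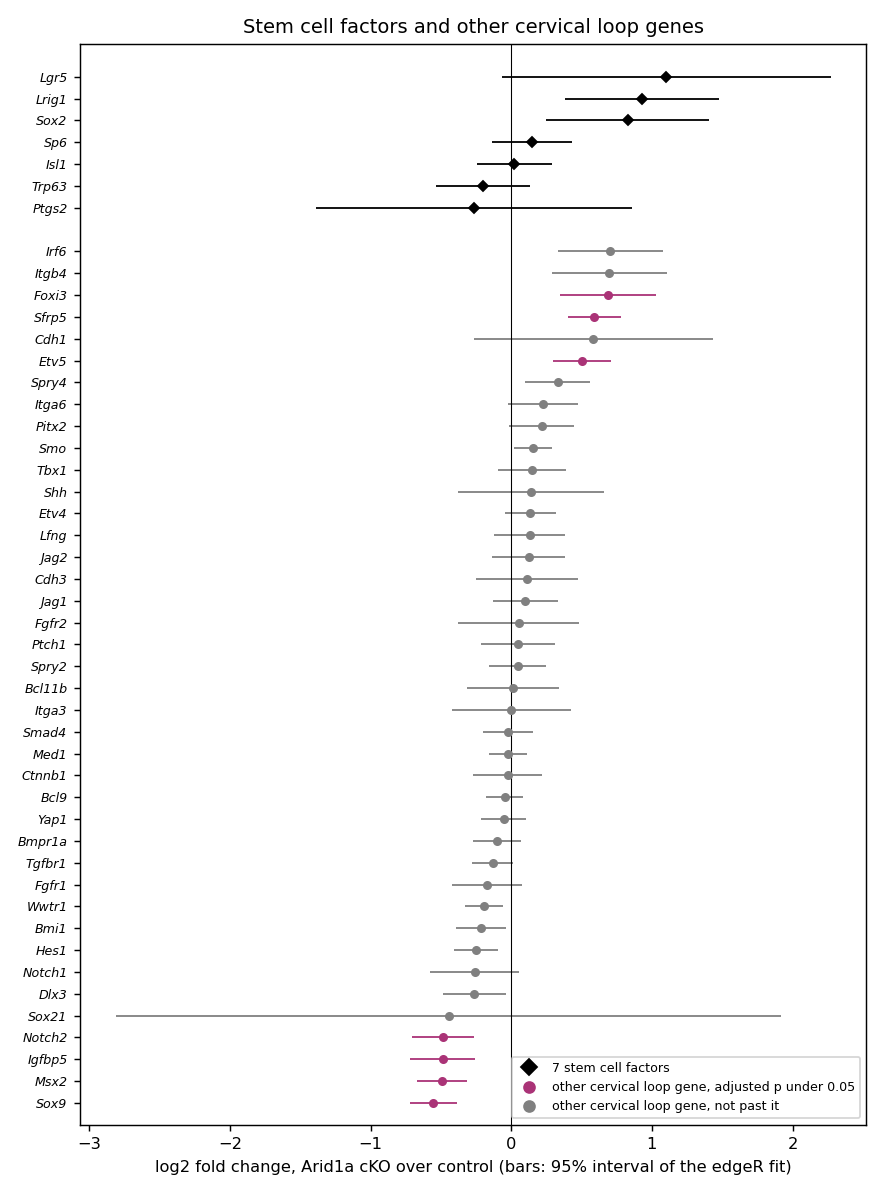
Log2 fold change of the 7 stem cell factors (black) and 40 other labial cervical loop genes, cKO over control, with 95% intervals of the edgeR fit; coloured points passed an adjusted p of 0.05. The 7 intervals of the stem cell factors are drawn on the same axis as those of the other genes, and 3 other genes rose and 4 fell. Of all genes tested, 1.5% rose and 2.46% fell.

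Genes that act with the members were read by their roles. Of all genes, edgeR called 1.5% higher and 2.46% lower, and 22% had an unadjusted p under 0.05 in edgeR. DESeq2 called 10.5% of the genes it tested, 831 higher and 1104 lower. Among 22 niche ligands and antagonists, edgeR called 0 higher and 3 lower, DESeq2 called 2 higher and 4 lower, and 7 had an unadjusted p under 0.05 in edgeR. Of the edgeR calls, Nog, a secreted BMP antagonist, fell 2.04-fold (edgeR adjusted p = 0.0127), Bmp2 1.52-fold (0.0294) and Wnt5a 1.61-fold (0.0341). Nog lost its call without control replicate 3 (adjusted p = 0.0512 in edgeR). Bmp2 kept its call without control replicate 3 or cKO replicate 1 and lost it without each other library (up to 0.0961), and Wnt5a kept it without cKO replicate 2 alone (up to 0.108). Fgf10, the mesenchymal ligand that maintains the cervical loop, stood at 0.13 on the log2 fold change scale and Fgf3 at 0.53 (adjusted p = 0.115), neither past the threshold. Of the 22, the groups were apart with the cKO higher for 4 and lower for 4, against 13.8% and 15.3% of all genes. Among 18 genes of the LGR and R-spondin axis, 0 rose and 1 fell in both edgeR and DESeq2: Rspo4, a ligand of LGR receptors, went from 1364 ± 90.6 to 738 ± 109 CPM (SD, n = 3 each; 1.85-fold lower, adjusted p = 0.0142, and 0.0506 without control replicate 1 and 0.0622 without cKO replicate 3). The related receptors Lgr4 (log2 fold change -0.33, adjusted p = 0.112) and Lgr6 (-0.18) did not pass, nor did Axin2 (-0.16, adjusted p = 0.460), a common readout of WNT signalling. Of the 18, the groups were apart with the cKO higher for 2 and lower for 3. Rspo3 was one of those higher, from 0.238 to 0.829 CPM (log2 fold change 1.80, edgeR adjusted p = 0.0831), a low level.

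None of 13 LRIG family and ErbB receptor genes passed in edgeR, and none in DESeq2, while 4 had an unadjusted p under 0.05. Of all genes, 22% had such a p, and edgeR called 1.5% higher and 2.46% lower. Over all genes it tested, DESeq2 called 10.5%, 831 of them higher and 1104 lower. Met, the receptor of hepatocyte growth factor, had the smallest p of the list and was lower in every cKO library, at 12.9 ± 0.634 and 10.2 ± 0.756 CPM (SD, n = 3 each; log2 fold change -0.34, edgeR adjusted p = 0.0954). Erbb3, an ErbB receptor for neuregulins, came next at a log2 fold change of 0.45 (adjusted p = 0.163), with groups that overlapped. The other LRIG genes stood at 0.34 for Lrig3 and -0.13 for Lrig2, and Egfr stood at 0.58. Among 23 genes of the p63 family and its targets, 2 rose and 0 fell in edgeR, and 5 rose and 0 fell in DESeq2. Grhl3, a grainyhead factor of epithelial barriers, rose 2.08-fold from 1.09 to 2.26 CPM (edgeR adjusted p = 0.0290), and Trp53, encoding p53, rose 1.22-fold (adjusted p = 0.0372). Both calls were lost when any 1 library was left out. Among targets that did not pass, the log2 fold change was 0.79 for Krt5 (adjusted p = 0.165), 0.63 for Krt14 (0.308) and -0.33 for Perp (0.268). Of 14 paralogues of the SOX, SP and LIM genes and their partners, 0 rose and 2 fell in edgeR, and 0 rose and 5 fell in DESeq2. Their median log2 fold change was -0.27, with 2 of 14 above 0. The groups were apart with the cKO higher for 0 and lower for 7, against 13.8% and 15.3% of all genes. The edgeR calls were 2 falls: Ldb2, a LIM-domain binding cofactor, fell 1.40-fold (edgeR adjusted p = 0.0247) and Sp4 1.33-fold (0.0372). Ldb2 lost its call without each library in turn (up to 0.0816), and Sp4 kept it without cKO replicate 3 alone (up to 0.114). The LIM cofactor Ldb1 was close to level, at a log2 fold change of -0.01. Of 17 prostaglandin genes, edgeR called 0 higher and 1 lower, and DESeq2 called 1 higher and 2 lower. The edgeR call, Ptges, which makes prostaglandin E2, fell 1.26-fold from 34.8 to 27.6 CPM (adjusted p = 0.0396) and lost its call without each library in turn (0.0678 to 0.125).

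Markers of other cell types that the tissue holds were read as well. Of all genes, edgeR called 1.5% higher and 2.46% lower, and 22% had an unadjusted p under 0.05 in edgeR. DESeq2 called 10.5% of the genes it tested, 831 higher and 1104 lower. Ptgs2 is also induced in myeloid cells. Of 12 macrophage and monocyte markers, 0 passed in edgeR and DESeq2, 1 had an unadjusted p under 0.05, all 12 had a log2 fold change above 0, and the sums were 447 to 617 CPM in the controls and 543 to 820 CPM in the cKO. Adgre1, encoding the macrophage marker F4/80, had the smallest p of these (log2 fold change 0.50, edgeR adjusted p = 0.226), followed by the receptor gene Csf1r (0.29, adjusted p = 0.301). Neutrophil markers summed to 0.511 to 0.924 CPM in the controls and 0.363 to 18.4 CPM in the cKO, and cKO replicate 1 was the high one. Schwann cell markers summed to 186 to 310.2 CPM in the controls and 310.9 to 404 CPM in the cKO. Of the 12 Schwann markers, 10 had a log2 fold change above 0, and the median was 0.60. Their groups were apart with the cKO higher for 6 and lower for 1, against 13.8% and 15.3% of all genes. In edgeR 0 rose and 1 fell, Cdh19, a cadherin, which was 2.37-fold lower (adjusted p = 0.0127), and DESeq2 called 1 higher and 1 lower. Sox10, a defining Schwann factor, measured 1.37 to 3.15 CPM in the controls and 3.01 to 4.13 CPM in the cKO. Of 5 oral epithelium markers tested, 0 passed in edgeR and DESeq2, and 1 had an unadjusted p under 0.05. The keratin gene Krt1 had a log2 fold change of 1.04 (edgeR adjusted p = 0.145) and Krt10 of 0.18 (0.491). Their list summed to 8.29 to 8.91 CPM in the controls and 8.47 to 12.3 CPM in the cKO. The part of these cells in the members' values was not tested.

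By the root mean square difference of centred log2 CPM over the 6 libraries, searched among 13537 genes, the patterns most like Sox2 were Klf5 (0.0997), Cblc (0.101) and Plekha7 (0.101). Those most like Lrig1 were Fam124a (0.0662), Penk (0.0736) and Kcnk5 (0.0799). Sox2 and Lrig1 were also nearest to each other among the members, at 0.240. For Trp63 they were Als2cl (0.0594), Plscr4 (0.0634) and Zbtb11 (0.0676), for Sp6 Acat2 (0.0311), Apold1 (0.0586) and Cisd3 (0.0644), and for Isl1 Zfyve21 (0.0187), Adcy4 (0.0261) and Epha7 (0.0336). For Ptgs2, whose own spread was 0.620, the nearest genes, Fcgr4, Evi2 and G0s2, were farther, at 0.304 to 0.314. Lgr5 was too low for this search. These are descriptions of the 6 libraries.

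**Figure D4:**
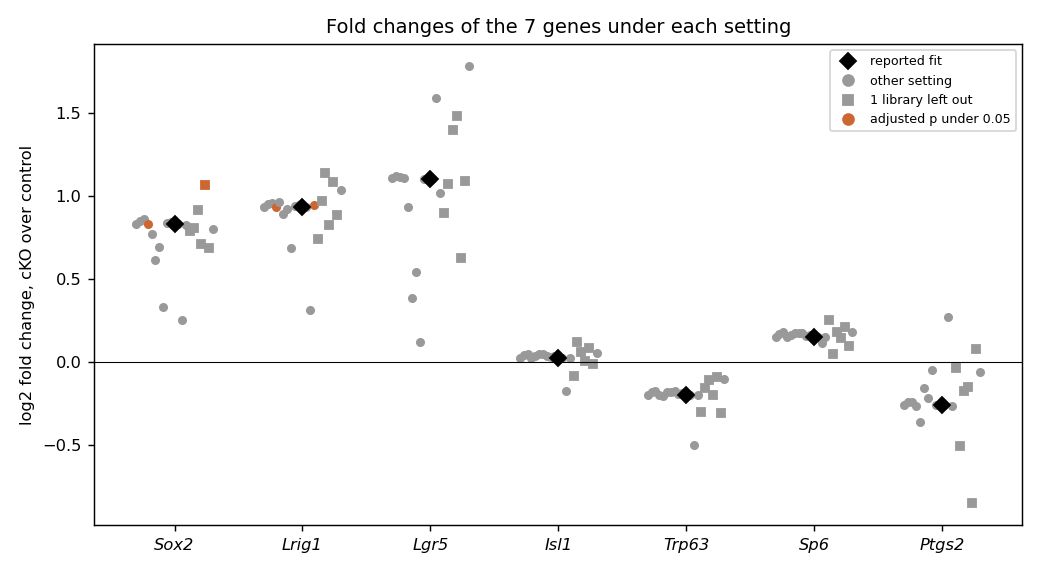
Log2 fold change of each gene in the reported fit (diamond) and in up to 21 other settings; squares leave out 1 library, and colour marks an adjusted p under 0.05. Sox2 and Lrig1 lie above 0 in all 21 settings and pass in 2 each, Trp63 lies below 0 in all 21, and Isl1 and Ptgs2 lie on both sides. All settings use the same libraries or some of them.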

How the data were processed

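RNA-seq libraries of 6 incisor samples were compared between 2 genotypes, 3 each. The submitters' processing notes name STAR 2.6.1d, Partek and the build mm10. No source used here gives the annotation, library kit or strand setting. The authors deposited estimated counts per gene, of which 54.0% to 57.6% per library lie within 0.01 of a whole number, and a normalized signal table, which equals the count plus 1 divided by a factor per library to within 0.00067% when tested on the values.

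Counts were rounded. Genes were kept by filterByExpr (minimum count 10), normalized by TMM and tested with edgeR 4.0.16 in R 4.3.3 (glmQLFit, robust, and glmQLFTest, two-sided). P-values were Benjamini-Hochberg adjusted over 19613 genes, SE is the absolute log2 fold change over the square root of F, and intervals are 95%. Log2 levels use a prior count of 2. DESeq2 1.42.0 and limma 3.58.1 (also on log2 of the deposited signal plus 0.5, 1 or 5) were alternatives. The test was tried on simulated counts first. Coordinates and exon lengths are from GENCODE M21, where 97.5% of the table's symbols are found. Within groups, the chi-square per degree of freedom between libraries was at least 29.3, so no library was a copy of another.

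The members and the 18 gene lists were chosen with earlier results of these data known. The text names the members, Arid1a, overlapping genes, up to 4 genes with the smallest p among those past the threshold in each list, or 2 where none passed, and 3 most similar patterns per member of at least 1 CPM. Others named were chosen after their values were seen.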

Additional observations from a re-analysis of the deposited data

How the results depend on the processing

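Sox2 and Lrig1 were positive in 21 of 21 alternatives, with log2 fold changes of 0.25 to 1.07 and 0.31 to 1.14, and passed in 2 each. All alternatives reuse the same libraries. Because the groups of these 2 genes do not overlap, leaving out a library could hardly reverse their sign. The number of members past the threshold and higher, 0 in the reported edgeR fit, was 2 with DESeq2, 1 with a term for sex-linked expression (Lrig1), and 0 to 1 when 1 library was left out, where Sox2 passed without cKO replicate 2. In the 4 libraries that express Y-linked genes, an alternative chosen after seeing the data, 0 members passed, and Lgr5 had a log2 fold change of 1.78 (edgeR adjusted p = 0.104). Lgr5 was positive in 20 of 20, at 0.12 to 1.78, Trp63 negative in 21 of 21, at -0.50 to -0.10, and Sp6 positive in 21 of 21, at 0.05 to 0.25. The 0.12 of Lgr5 came from limma on log2 of the deposited signal plus 5. Lgr5 signals were 0.310 to 1.41, so adding 5 shrinks the ratio. Isl1 changed sign to -0.18 with the epithelium score as covariate and ranged from -0.083 to 0.12 when 1 library was left out. Ptgs2 changed sign to 0.27 with that covariate and ranged from -0.85 to 0.074. The level of Lgr5 relative to the markers ranged from -0.15 without cKO replicate 2 to 1.00 without cKO replicate 1. The cause of the changes in Isl1, in Ptgs2 and in the relative level of Lgr5 was not tested. Over all genes, 777 passed in the reported fit, 1935 with DESeq2, 1272 with the sex-linked term, 0 with the epithelium covariate, 177 in the 4 libraries and 160 to 532 when 1 library was left out. Among the other cervical loop genes the counts were 5 rises and 4 falls with DESeq2, 0 and 0 with the covariate, and 0 and 1 in the 4 libraries. No paired analysis was possible because the labels do not say which libraries form pairs and the sample numbers of the groups overlap in fewer than 2. Lgr5 and Ptgs2 had the lowest CPM of the members, and their cKO libraries differed by more than counting error. The exact Poisson 95% interval of Lgr5 was 0.272 to 0.725 CPM in cKO replicate 1 and 1.29 to 2.15 CPM in cKO replicate 2. For Ptgs2 it was 1.57 to 2.51 CPM in cKO replicate 2 and 0.327 to 0.898 CPM in cKO replicate 3.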

Other observations

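Of all genes, edgeR called 1.5% higher and 2.46% lower, and 22% had an unadjusted p under 0.05 in edgeR. DESeq2 called 10.5% of the genes it tested, 831 higher and 1104 lower. Of 12 early response genes, 1 rose past the threshold in edgeR and 2 in DESeq2. The edgeR call was Egr2, an immediate-early zinc-finger factor, from 2.48 ± 0.718 to 5.0 ± 0.377 CPM (SD, n = 3 each; 2.02-fold, edgeR adjusted p = 0.0472, kept without control replicate 2 alone and up to 0.137 otherwise). Of the 12, 11 had a log2 fold change above 0, including Egr1 at 0.46 (adjusted p = 0.114) and Fos at 0.23 (adjusted p = 0.635). Of 9 ameloblast markers, 1 rose in edgeR and 2 in DESeq2. The edgeR call was Alox12, a lipoxygenase, from 1.01 to 1.94 CPM (1.92-fold, edgeR adjusted p = 0.0453, lost without each library in turn, up to 0.134). Amelx, the main enamel matrix protein, measured 134, 171 and 1914 CPM in the controls and 634, 34.8 and 227 CPM in the cKO, so its libraries differed far more within groups than between them. Of 12 dental mesenchyme markers 1 fell, Lum, a collagen-binding proteoglycan, 1.99-fold from 1972 to 989 CPM (edgeR adjusted p = 0.0194, lost without control replicates 1 or 3 or cKO replicate 3, up to 0.0724). Of 9 endothelial markers and 5 skeletal muscle markers tested, 0 passed in edgeR and DESeq2, and 1 and 2 had an unadjusted p under 0.05. The smallest p belonged to the endothelial genes Cdh5 (log2 fold change -0.31, edgeR adjusted p = 0.165) and Kdr (-0.13, adjusted p = 0.378), and to the muscle genes Tnnt3 (-1.40, adjusted p = 0.186) and Acta1 (-3.10, adjusted p = 0.226).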
